A study of Mus musculus with 24 samples.

Results

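Tuft-like microvillar cells and ionocytes are rare non-neuronal cells of the olfactory epithelium (OE), and they were followed here through 9 genes taken by symbol from a table of 45706 genes. *Trpm5*, *Pou2f3*, *Chat*, *Avil*, *Il25* and *Alox5* are the 6 genes of the tuft-like microvillar cells, and *Foxi1*, *Ascl3* and *Cftr* are the 3 genes of the ionocytes. Tuft-like cells carry a brush of apical microvilli, depend on the transcription factor Pou2f3, and use parts of the taste transduction cascade to sense their surroundings. They release acetylcholine, leukotrienes and the cytokine interleukin-25. Ionocytes are set by the transcription factor Foxi1 and move ions across the epithelium, with Cftr as a chloride and bicarbonate channel.

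Bulk RNAseq of polyadenylated RNA was made from the main OE of untreated mice, in directional libraries, to compare *WT* with *iRhom2-/-* animals at several ages. The authors give a mixed 129Sv and C57BL/6 background for the *iRhom2-/-* mice and name none for the *WT* mice in that account. Whether the background was matched between genotypes is therefore not known here. *WT* mice carried intact *Rhbdf2*, the gene for iRhom2, and *iRhom2-/-* mice were homozygous for the allele Rhbdf2^tm1b(KOMP)Wtsi, in which the promoter of the gene drives LacZ. There were 3 mice per genotype at each of 4 ages (5, 8, 10 and 30 weeks), 24 libraries in all. The labels give mouse 3 of both genotypes at 10 weeks and *WT* mouse 3 of 8 weeks as female and the other mice as male, so the *iRhom2-/-* mice of 8 weeks were all male. The mice of 8 weeks, those of 10 weeks, and those of 5 and 30 weeks together were sequenced in 3 separate submissions. Columns 7 to 12 of each genotype hold the mice of 5 and 30 weeks, but their names do not show which age is which. These 12 libraries were therefore compared by genotype alone, with both ages in each group, and are called libraries 7 to 12. No age difference was read from them.

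The authors deposited estimated counts per gene, and all levels below are counts per 1000000 (CPM) after TMM normalization, which scales libraries to a common composition. Total counts ranged from 25333822 in *iRhom2-/-* library 7 to 48660394 in *WT* mouse 1 of 8 weeks. The median total was 34235368 in the *WT* libraries and 34096686 in the *iRhom2-/-* libraries. Depth was greatest at 8 weeks (median 44361013), lower at 10 weeks (34382483) and lowest in libraries 7 to 12 (28233476). A count of 3, the limit that a count of 0 allows, corresponded to between 0.0622 and 0.112 CPM, and this limit covers counting error only. *iRhom2-/-* mouse 2 of 10 weeks stood apart, since the secretory gene *Bpifb9b* took 13.6% of its counts.

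*Rhbdf2* itself (chr11:116598165-116627019 of GRCm38, minus strand) served as a check of the labels. At 8 weeks it was at 20.4, 23.6 and 20.2 CPM in *WT* mice and at 11.0, 13.4 and 12.9 CPM in *iRhom2-/-* mice. The *WT* mice of 10 weeks had 21.0, 20.7 and 21.5 CPM, and the *iRhom2-/-* mice had 9.63, 10.2 and 7.19 CPM. Libraries 7 to 12 had 19.3 to 24.95 CPM in *WT* (median 22.4) and 7.73 to 12.4 CPM in *iRhom2-/-* (median 10.1). Each *iRhom2-/-* library was below each *WT* library, so no library went against its label, although reads of the gene remained. Over 24 libraries *Rhbdf2* fell by 1.08 on the log2 scale (SE 0.0866, adjusted p = 9.78e-08, edgeR's quasi-likelihood test, lower in 12 of 12).

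The 9 genes differed widely in abundance. Per kilobase of exon, the mean level over 24 libraries was 33.1 CPM for *Ascl3*, 10.3 for *Foxi1* and 2.21 for *Cftr*. Among the tuft-like genes it was 1.78 CPM per kilobase for *Pou2f3*, 1.31 for *Trpm5*, 1.28 for *Avil*, 1.18 for *Alox5*, 0.548 for *Il25* and 0.0595 for *Chat*. The ionocyte genes thus stood above the tuft-like genes on this scale. *Ascl3* exceeded *Foxi1*, and *Foxi1* exceeded *Cftr*, in 24 of 24 libraries. *Cftr* was above *Pou2f3* in 20 libraries and *Pou2f3* was above *Trpm5* in 22. *Trpm5*, *Avil* and *Alox5* were not separated in the same way, since *Trpm5* was above *Avil* in 10 of 24 libraries and their standard deviations were 0.457, 0.336 and 0.349 CPM per kilobase. *Il25* rested on 10 to 41 counts per library. *Chat* rested on 0 to 24 counts and was at or under 3 counts in 3 libraries, so its values carry the largest counting error.

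The genes lie apart in the genome (GRCm38 coordinates). *Trpm5* is at chr7:143069153-143094642, *Pou2f3* at chr9:43123939-43210369 and *Chat* at chr14:32408203-32465989, all on the minus strand. *Avil* is at chr10:127000709-127020994 and *Il25* at chr14:54932695-54935837 on the plus strand, and *Alox5* is at chr6:116410077-116461178 on the minus strand. For the ionocytes, *Foxi1* is at chr11:34204338-34208089 and *Ascl3* at chr7:109727465-109731726 on the minus strand, and *Cftr* is at chr6:18170687-18322768 on the plus strand. Exons of *Trpm5*, *Avil* and *Cftr* share up to 217, 165 and 129 bases with exons of *Tssc4*, *Tsfm* and *Gm15592* on the opposite strand. Whether strand was used in counting is not given in the sources used here, so reads of those stretches could come from either gene. *Slc18a3*, the vesicular acetylcholine transporter, lies inside *Chat* on the same strand and shares 0 exon bases with it.

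None of the 9 genes passed the test between genotypes in any comparison. A gene was called when its p from edgeR's quasi-likelihood test, adjusted by Benjamini-Hochberg over all genes tested, was under 0.1. Over 24 libraries, with submission as a term, 0 of 9 were called, where 1.97% of all 20763 genes tested were (233 higher and 177 lower). At 8 weeks 0 of 9 were called against 4.98% of all genes, at 10 weeks 0 of 9 against 0.197%, and in libraries 7 to 12 0 of 8 against 1.07%, *Chat* being removed there by the filter on low counts. The unadjusted p was under 0.05 for 2, 3, 0 and 1 of the genes in these comparisons, in the same order. Over all genes tested this was so for 2573 of 20763, 3827 of 19335, 1461 of 18764 and 2616 of 18481. DESeq2, the other tool run, called 1 of 9 over 24 libraries (*Pou2f3*) and 1 of 9 at 8 weeks (*Alox5*) and none in the others. Of all genes it called 824 over 24 libraries and 2195 at 8 weeks. The test of whether the genotype difference varied between the 3 submissions called 0 of 9, against 0.0482% of all genes, and 0 of 9 had an unadjusted p under 0.05. DESeq2 also called none there.

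Differences were small in most comparisons. Over 24 libraries 6 of 9 genes were higher in *iRhom2-/-*, with a median log2 fold change of 0.11 and a range of -0.17 to 0.90, while the median over all genes tested was -0.0011 and 49.7% of them were higher. The median of the 9 was -0.06 at 8 weeks (4 of 9 higher) and 0.09 at 10 weeks (6 of 9 higher). In libraries 7 to 12 it was 0.08, with 5 of 8 higher. At 8 weeks the *WT* and *iRhom2-/-* values did not overlap for 3 genes, namely *Pou2f3*, *Alox5* and *Cftr*, where 26.7% of all genes tested did not overlap. At 10 weeks 0 of 9 genes were without overlap against 13.2% of all genes, and in libraries 7 to 12 this was so for 0 of 9 against 1.66%. In bulk tissue, fewer cells of a type and less RNA per cell cannot be told apart.

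**Figure D1:**
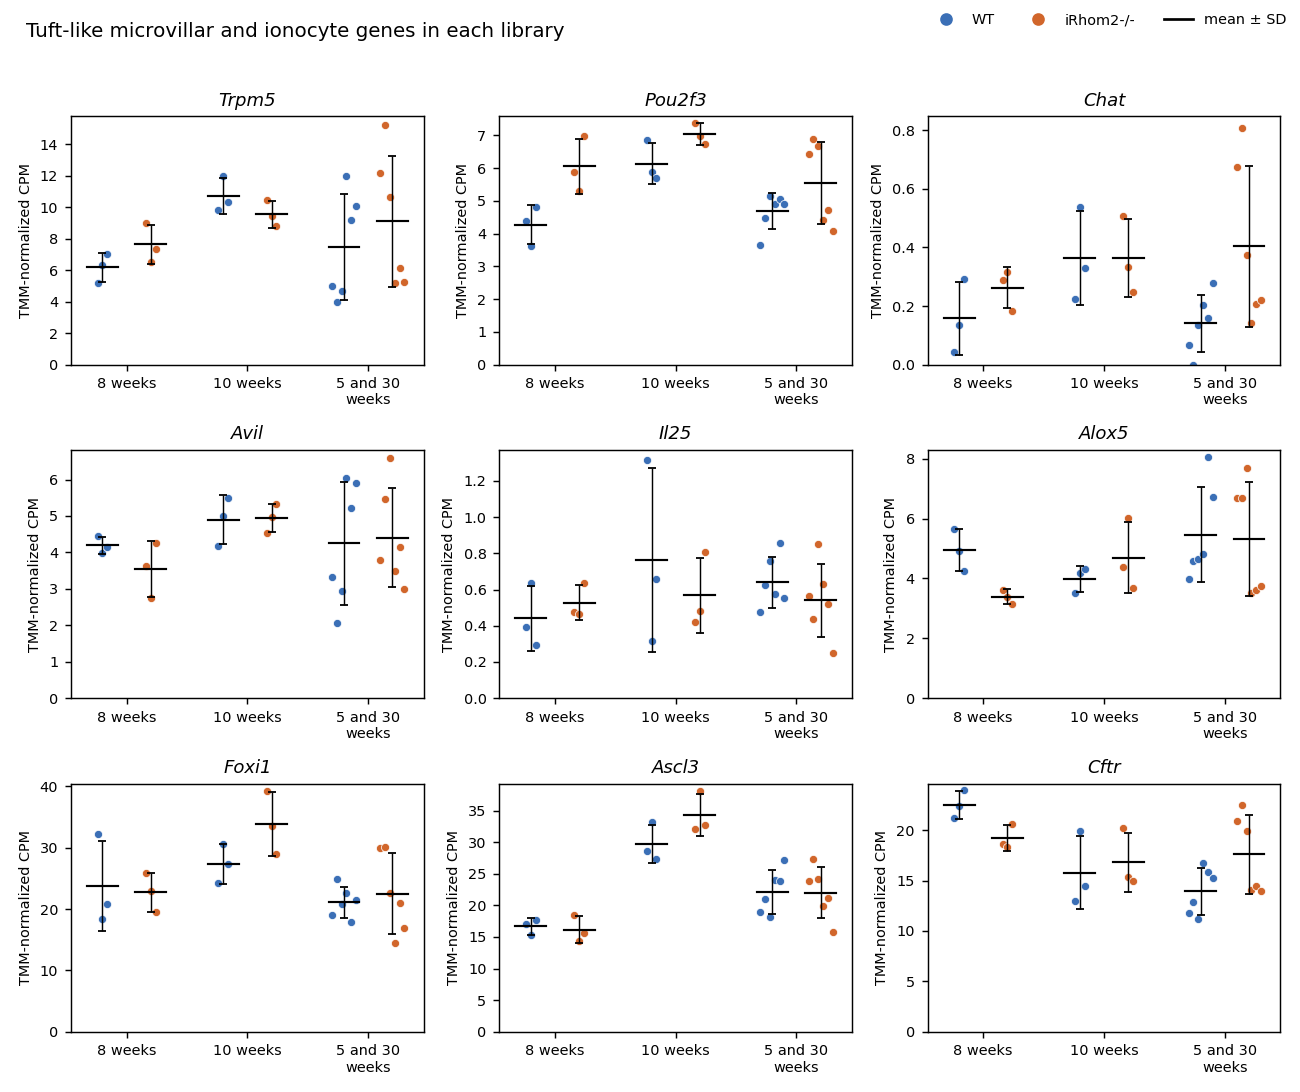
TMM-normalized CPM of each of the 9 genes in each library, by genotype, at 8 weeks, at 10 weeks and in the libraries of 5 and 30 weeks. Points are libraries and bars are the mean with the standard deviation. *Pou2f3*, *Alox5* and *Cftr* do not overlap between genotypes at 8 weeks, and *Trpm5* falls into separate levels within each genotype in the libraries of 5 and 30 weeks.

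*Pou2f3* encodes the transcription factor required for tuft-like cells and had the smallest adjusted p of the 9 genes over 24 libraries. At 8 weeks its level was 4.38, 3.63 and 4.80 CPM in *WT* mice and 5.89, 5.29 and 6.97 CPM in *iRhom2-/-* mice. At 10 weeks it was 6.84, 5.87 and 5.68 CPM in *WT* and 7.39, 6.97 and 6.72 CPM in *iRhom2-/-*. The range in libraries 7 to 12 was 3.66 to 5.14 CPM in *WT* (median 4.89) and 4.07 to 6.89 CPM in *iRhom2-/-* (median 5.59). All *iRhom2-/-* mice of 8 weeks were thus above all *WT* mice, *WT* mouse 1 of 10 weeks reached into the *iRhom2-/-* values of that age, and *iRhom2-/-* libraries 10 to 12 lay among the *WT* libraries. The log2 fold change over 24 libraries was 0.30 (SE 0.0982, 95% confidence interval 0.09 to 0.50), with 10 of 12 *iRhom2-/-* libraries above the *WT* mean of their submission, and it missed the threshold (adjusted p = 0.173, edgeR). DESeq2 gave the same size of 0.30 with an adjusted p of 0.0791. By stratum the log2 fold change was 0.48 at 8 weeks (adjusted p = 0.208), 0.20 at 10 weeks (0.842) and 0.25 in libraries 7 to 12 (0.512), all from edgeR. Without libraries 7 to 12 it was 0.35.

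Beside *Pou2f3* at 8 weeks, markers of mature OSNs (mOSNs) also lay higher in *iRhom2-/-* mice. All 10 mOSN markers had positive values, 4 of them called, and their median log2 fold change was 0.51, where 4.98% of all genes were called and 49.8% were higher. At 8 weeks 6 of 6 sustentacular markers were also higher (median 0.16, 0 called). The summed level of the mOSN markers at 8 weeks was 10741, 13096 and 13164 CPM in *WT* and 15859, 18227 and 20131 CPM in *iRhom2-/-* mice, led by *Omp*, and no marker of the list was at 0. At 10 weeks 1 of 10 mOSN markers was higher (median -0.17), while *Pou2f3* had 0.20. The part of these cells in the values of *Pou2f3* was not tested.

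*Trpm5*, the cation channel that depolarizes these cells after taste-type signalling, showed no common direction. At 8 weeks it was at 5.21, 6.30 and 7.02 CPM in *WT* and 9.00, 6.54 and 7.35 CPM in *iRhom2-/-* mice. The mice of 10 weeks had 9.83, 12.0 and 10.3 CPM in *WT* and 10.5, 9.42 and 8.77 CPM in *iRhom2-/-* mice. The ranges overlapped at both ages, with 3 of 3 *iRhom2-/-* mice above the *WT* mean at 8 weeks and 0 of 3 at 10 weeks. The log2 fold changes were 0.29 and -0.17 (adjusted p = 0.410 and 0.860, edgeR), and the difference between submissions missed the threshold (adjusted p = 0.820). For libraries 7 to 12 the log2 fold change was 0.29 (SE 0.341, adjusted p = 0.757), with 3 of 6 *iRhom2-/-* libraries above the *WT* mean. Over 24 libraries the value was 0.18 (SE 0.191, 95% confidence interval -0.22 to 0.57, adjusted p = 0.791), with 6 of 12 *iRhom2-/-* libraries above the *WT* mean. Leaving out 1 library moved it to between 0.07 and 0.26, the value of 8 weeks to between 0.14 and 0.39 and that of 10 weeks to between -0.24 and -0.07.

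*Chat*, the enzyme that makes acetylcholine, was near the limit of detection. At 8 weeks it was at 0.0436, 0.137 and 0.292 CPM in *WT* and 0.290, 0.316 and 0.182 CPM in *iRhom2-/-* mice, and at 10 weeks at 0.225, 0.539 and 0.329 CPM in *WT* and 0.509, 0.334 and 0.248 CPM in *iRhom2-/-*. Levels in libraries 7 to 12 were 0 to 0.278 CPM in *WT* (median 0.147) and 0.141 to 0.807 CPM in *iRhom2-/-* (median 0.298). The genotypes overlapped in each of these comparisons, and the highest values were those of *iRhom2-/-* libraries 7 and 8. Over 24 libraries the log2 fold change was 0.90 (SE 0.399, 95% confidence interval 0.08 to 1.72, adjusted p = 0.348, edgeR), with 10 of 12 *iRhom2-/-* libraries above the *WT* mean. The value was 0.74 at 8 weeks, -0.002 at 10 weeks, and 0.35 over both ages together, and leaving out 1 mouse moved the value of 8 weeks to between 0.28 and 1.51. In libraries 7 to 12, where the filter had removed the gene, the mean was 0.140 CPM in *WT* and 0.404 CPM in *iRhom2-/-*, and 6 of 6 *iRhom2-/-* libraries were above the *WT* mean. A two-sided exact permutation test over all 924 arrangements gave p = 0.0390 for this difference, with no adjustment for the number of genes. The test exchanged all these libraries freely, although they hold both ages. *iRhom2-/-* libraries 7 to 9 had 0.373 to 0.807 CPM and were also high in *Trpm5*. *iRhom2-/-* libraries 10 to 12 had 0.141 to 0.222 CPM, inside the *WT* range. That range spans separate levels, with 0 to 0.135 CPM in *WT* libraries 7 to 9 and 0.158 to 0.278 CPM in *WT* libraries 10 to 12. Leaving out 1 library at a time moved that exact p to between 0.0108 and 0.0996, and it was over 0.05 in 8 of 12 cases, namely without *WT* libraries 7, 8, 9, 10 or 11 (0.0909, 0.0996, 0.0736, 0.0584 and 0.0649) and without *iRhom2-/-* libraries 7, 8 or 9 (0.0606, 0.0628 and 0.0563).

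*Avil*, an actin-binding protein of the microvilli, had 4.44, 3.99 and 4.14 CPM in the *WT* mice of 8 weeks and 3.63, 2.74 and 4.26 CPM in the *iRhom2-/-* mice. *iRhom2-/-* mouse 3 lay inside the *WT* range and the others below it. Its log2 fold change was -0.26 at 8 weeks, 0.02 at 10 weeks, 0.06 in libraries 7 to 12 and -0.03 over 24 libraries (adjusted p = 0.528, 0.991, 0.954 and 0.966, edgeR). *Il25*, the cytokine through which tuft cells act on group 2 innate lymphoid cells, ranged from 0.292 to 1.32 CPM in *WT* and from 0.247 to 0.849 CPM in *iRhom2-/-* libraries. The highest value was that of *WT* mouse 1 of 10 weeks, and the genotypes overlapped in all 3 strata. Its log2 fold change over 24 libraries was -0.17 (SE 0.232, adjusted p = 0.847), with 5 of 12 *iRhom2-/-* libraries above the *WT* mean, and the 95% confidence interval ran from -0.65 to 0.31. Leaving out 1 library moved this value to between -0.25 and -0.02. It was 0.23 at 8 weeks, with 3 of 3 above the *WT* mean, -0.42 at 10 weeks and -0.25 in libraries 7 to 12 (adjusted p = 0.805, 0.916 and 0.752, edgeR).

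*Alox5*, the lipoxygenase that opens leukotriene synthesis, differed more between genotypes at 8 weeks than at 10 weeks or in libraries 7 to 12. Its level was 5.66, 4.93 and 4.26 CPM in *WT* and 3.63, 3.40 and 3.14 CPM in *iRhom2-/-* mice, so all *iRhom2-/-* mice were below all *WT* mice. The log2 fold change was -0.57 (SE 0.189, 95% confidence interval -1.01 to -0.12) and missed the threshold in edgeR (adjusted p = 0.167), whereas DESeq2 called it (-0.58, adjusted p = 0.0841). At 10 weeks the values were 3.501, 4.19 and 4.31 CPM in *WT* and 4.40, 6.01 and 3.69 CPM in *iRhom2-/-* mice. *iRhom2-/-* mouse 2 was the highest and mouse 3 lay among the *WT* mice, with a log2 fold change of 0.23 (adjusted p = 0.889, edgeR) that was between 0.0012 and 0.37 when 1 mouse was left out. In libraries 7 to 12 there were 3.97 to 8.05 CPM in *WT* (median 4.74) and 3.51 to 7.71 CPM in *iRhom2-/-* (median 5.22), with a log2 fold change of -0.03 (adjusted p = 0.976, edgeR). The difference between submissions missed the threshold (adjusted p = 0.563).

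*Alox5* is also made by myeloid cells, and macrophage markers lay lower in the *iRhom2-/-* mice of 8 weeks. Of 10 macrophage markers, 0 were higher and 0 were called, where 49.8% of all genes at 8 weeks were higher and 4.98% were called. The median log2 fold change of these markers was -0.70. Their summed level was 662, 321 and 379 CPM in *WT* and 320, 190 and 215 CPM in *iRhom2-/-* mice. *Lyz2* was the most abundant marker, and none was at 0. Of 6 lymphocyte markers, led by *Cd79a*, 0 were higher and the median was -1.34, with summed levels of 34.4, 9.40 and 11.1 CPM in *WT* and 7.57, 8.77 and 4.78 CPM in *iRhom2-/-*. Of 9 neutrophil markers, led by *S100a9*, 6 were higher at 8 weeks (median 0.11, 0 called), with sums of 1824, 430 and 354 CPM in *WT* and 391, 889 and 262 CPM in *iRhom2-/-* mice. At 10 weeks, *iRhom2-/-* mouse 2 had both the highest *Alox5* and the highest macrophage sum (744 CPM), and there 9 of 10 macrophage markers (median 0.13) and 8 of 9 neutrophil markers (median 0.90) were higher. In libraries 7 to 12, 0 of 10 macrophage markers (median -0.30) and 0 of 9 neutrophil markers (median -0.24) were higher, while *Alox5* had -0.03. Of all genes, 51.4% were higher at 10 weeks and 49.7% in libraries 7 to 12. The part of these cells in the values of *Alox5* was not tested.

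*Foxi1*, the transcription factor that sets ionocyte identity, was at 32.2, 18.4 and 20.8 CPM in the *WT* mice of 8 weeks and at 25.8, 22.9 and 19.5 CPM in the *iRhom2-/-* mice. In the mice of 10 weeks it was at 24.2, 30.6 and 27.3 CPM in *WT* and 39.2, 33.5 and 28.9 CPM in *iRhom2-/-* mice. Levels in libraries 7 to 12 ran from 17.9 to 24.96 CPM in *WT* (median 21.1) and 14.4 to 30.2 CPM in *iRhom2-/-* (median 21.8). The genotypes overlapped in each stratum, at 8 weeks with the highest value in *WT* mouse 1 and at 10 weeks with *WT* mouse 2 above *iRhom2-/-* mouse 3. The log2 fold change was -0.08 at 8 weeks, 0.31 at 10 weeks and 0.10 in libraries 7 to 12 (adjusted p = 0.867, 0.689 and 0.846, edgeR). Over 24 libraries it was 0.11 (SE 0.115, adjusted p = 0.789), with 7 of 12 *iRhom2-/-* libraries above the *WT* mean.

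*Ascl3*, a transcription factor found in ionocytes, had the narrowest interval of the 9 genes over 24 libraries. At 8 weeks it was at 17.0, 15.3 and 17.7 CPM in *WT* and 18.5, 14.4 and 15.6 CPM in *iRhom2-/-* mice. Levels at 10 weeks were 28.6, 33.1 and 27.4 CPM in *WT* and 32.2, 38.1 and 32.7 CPM in *iRhom2-/-* mice. All mice of 10 weeks lay above all mice of 8 weeks, but age and submission cannot be told apart here. The genotypes overlapped at both ages, and libraries 7 to 12 had medians of 22.4 CPM in *WT* and 22.5 CPM in *iRhom2-/-*. Over 24 libraries the log2 fold change was 0.04 (SE 0.0823, 95% confidence interval -0.13 to 0.21, adjusted p = 0.914, edgeR), with 7 of 12 *iRhom2-/-* libraries above the *WT* mean.

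*Cftr*, the anion channel, was at 21.2, 22.4 and 23.97 CPM in the *WT* mice of 8 weeks and at 18.7, 18.3 and 20.7 CPM in the *iRhom2-/-* mice, with all *iRhom2-/-* mice below all *WT* mice. At 10 weeks the gene had 12.97, 19.9 and 14.4 CPM in *WT* and 20.2, 15.4 and 14.9 CPM in *iRhom2-/-* mice, and the groups overlapped. Libraries 7 to 12 had 11.1 to 16.7 CPM in *WT* (median 14.1) and 13.9 to 22.5 CPM in *iRhom2-/-* (median 17.2), and there *iRhom2-/-* libraries 7, 8 and 9 exceeded all *WT* libraries. The log2 fold change was -0.25 at 8 weeks (SE 0.0872, 95% confidence interval -0.45 to -0.04, adjusted p = 0.184, edgeR) and 0.09 at 10 weeks (adjusted p = 0.952). In libraries 7 to 12 it was 0.34 (SE 0.155, 95% confidence interval 0.01 to 0.68, adjusted p = 0.341), with 5 of 6 above the *WT* mean. The signs at 8 weeks and in libraries 7 to 12 were opposite, yet the test of the difference between submissions missed the threshold (adjusted p = 0.453). At 8 weeks 1 of 6 gland and secretory markers was higher (median -0.86, 0 called), where 49.8% of all genes were higher and 4.98% were called. At 10 weeks 2 of 6 were higher (median -0.18), and in libraries 7 to 12 also 2 of 6 (median -0.42), while *Cftr* had 0.09 and 0.34 there. The part of those cells in the values of *Cftr* was not tested. Over 24 libraries the value was 0.13 (SE 0.107, adjusted p = 0.691), and without libraries 7 to 12 it was -0.08.

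**Figure D2:**
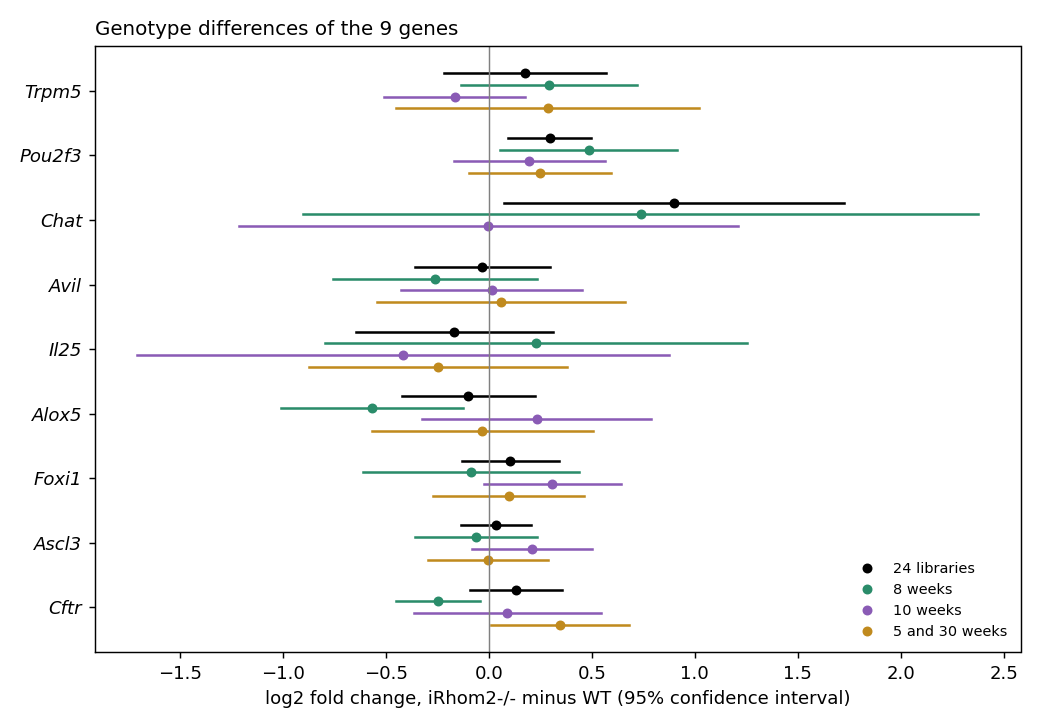
Log2 fold change of each gene, *iRhom2-/-* minus *WT*, with its 95% confidence interval, over 24 libraries, at 8 weeks, at 10 weeks and in the libraries of 5 and 30 weeks. *Chat* has no value in the last comparison because the filter on low counts removed it. The values over 24 libraries lie between -0.17 for *Il25* and 0.90 for *Chat*, and no gene passed the adjusted threshold in edgeR.

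The values of *Trpm5*, *Avil*, *Alox5* and *Ascl3* spread more widely within each genotype in libraries 7 to 12 than at 8 or 10 weeks, which was not so for *Pou2f3*, *Chat*, *Il25*, *Foxi1* or *Cftr* in *WT*. In *iRhom2-/-*, *Pou2f3*, *Chat*, *Foxi1* and *Cftr* also spread more widely there than at either age, and *Il25* did not. *Trpm5* was at 5.02, 3.95 and 4.70 CPM in *WT* libraries 7, 8 and 9 and at 12.0, 9.16 and 10.1 CPM in *WT* libraries 10, 11 and 12. In *iRhom2-/-* it was at 12.1, 15.2 and 10.6 CPM in libraries 7, 8 and 9 and at 5.20, 6.15 and 5.26 CPM in libraries 10, 11 and 12. No library of these 12 fell between 6.15 and 9.16 CPM. *Avil* was at 3.32, 2.08 and 2.95 CPM in *WT* libraries 7 to 9 and at 6.05, 5.23 and 5.90 CPM in *WT* libraries 10 to 12, whereas in *iRhom2-/-* the library numbers were not separated for this gene. *Cftr*, *Chat*, *Alox5* and *Ascl3* were separated between libraries 7 to 9 and 10 to 12 in both genotypes. *Cftr* was at 11.1 to 12.9 CPM and then 15.2 to 16.7 CPM in *WT*, and at 19.9 to 22.5 CPM and then 13.9 to 14.4 CPM in *iRhom2-/-*. *Chat* was at 0 to 0.135 CPM and then 0.158 to 0.278 CPM in *WT*, and at 0.373 to 0.807 CPM and then 0.141 to 0.222 CPM in *iRhom2-/-*. The summed CPM of the 6 tuft-like genes was 15.7 to 18.3 in *WT* libraries 7 to 9 and 28.4 to 28.6 in *WT* libraries 10 to 12. It was 30.3 to 35.5 in *iRhom2-/-* libraries 7 to 9 and 16.5 to 19.4 in *iRhom2-/-* libraries 10 to 12. The ionocyte sum went the same way in *iRhom2-/-*, with 66.7 to 79.9 CPM in libraries 7 to 9 and 46.6 to 56.5 CPM in libraries 10 to 12. In *WT* it overlapped, with 49.7 to 58.8 CPM in libraries 7 to 9 and 57.6 to 63.8 CPM in libraries 10 to 12.

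Markers of immature OSNs (iOSNs) and of globose basal cells and precursors ran the other way in these 12 libraries. The summed level of 5 iOSN markers, led by *Stmn1*, was 1188, 1180 and 1465 CPM in *WT* libraries 7 to 9 and 624, 656 and 715 CPM in *WT* libraries 10 to 12. In *iRhom2-/-* it was 623, 644 and 547 CPM in libraries 7 to 9 and 1553, 1330 and 1257 CPM in libraries 10 to 12. The sum of 7 globose basal and precursor markers, led by *Neurod1*, was 129, 139 and 137 CPM and then 66.7, 80.0 and 81.7 CPM in the same order in *WT*. It was 74.5, 69.4 and 72.3 CPM and then 157, 147 and 145 CPM in *iRhom2-/-*. Libraries with high *Trpm5* thus had low iOSN and precursor sums, and no marker of these lists was at 0. Since the columns show no age, libraries 7 to 9 were not averaged or tested against libraries 10 to 12, and the part of these levels in the genotype values of libraries 7 to 12 was not tested. The fits had no term for these levels, so their spread entered the standard errors. For *Trpm5* the SE was 0.341 in libraries 7 to 12, against 0.182 at 8 weeks and 0.149 at 10 weeks. An overlap or a missed threshold in libraries 7 to 12 therefore does not show that a genotype difference was absent.

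**Figure D3:**
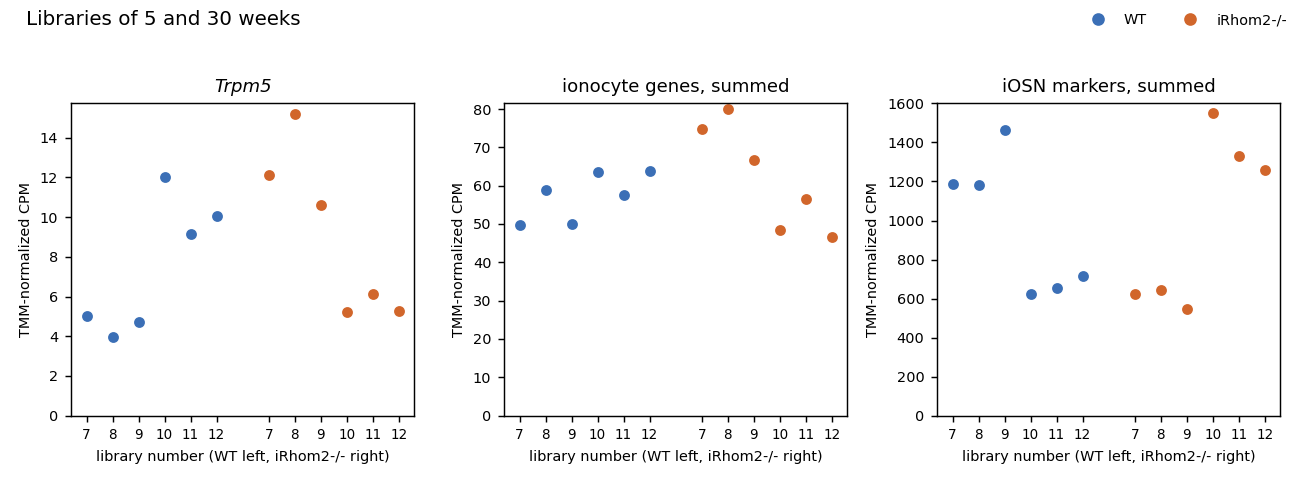
TMM-normalized CPM in libraries 7 to 12 of each genotype, for *Trpm5*, for the sum of the 3 ionocyte genes and for the sum of 5 iOSN markers. Each point is a library. *Trpm5* lies between 3.95 and 6.15 CPM or between 9.16 and 15.2 CPM, and the iOSN sum is low where *Trpm5* is high.

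How far the 9 genes moved together from mouse to mouse was examined over all 36 pairs, on log2 CPM centred on each genotype and stratum. Because libraries 7 to 12 fell into separate levels, no coefficient over 24 libraries is given for these pairs. In that pool, 24 of 36 pairs had a permutation p that stayed under 0.1 after Benjamini-Hochberg adjustment (10 of 15 within the tuft-like genes, 3 of 3 within the ionocyte genes and 11 of 18 across them). In the 12 mice of 8 and 10 weeks alone, a comparison chosen after seeing the data, 0 of 36 pairs did so, and the median coefficient was 0.0686. The smaller number of mice also makes the threshold harder to pass, and the part of libraries 7 to 12 in the pairs of the pool was not tested apart from it.

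Within the 12 mice, the relation of *Trpm5* with *Chat* had the highest positive coefficient. Pearson's r was 0.74 (permutation p = 0.0238, adjusted p = 0.343) and Spearman's rho 0.71 (permutation p = 0.0352, adjusted p = 0.329), and r was 0.73 without the 2 mice farthest from the median of *Trpm5*. *Trpm5* and *Cftr* had r = 0.61 (permutation p = 0.0237, adjusted p = 0.343) and rho = 0.61 (permutation p = 0.0190, adjusted p = 0.329), and r = 0.77 without the 2 farthest mice. Within ages, r for *Trpm5* and *Chat* was 0.63 at 8 weeks and 0.99 at 10 weeks, and for *Trpm5* and *Cftr* it was 0.45 and 0.98, each over 6 mice. *Chat* and *Cftr* had r = 0.64 (permutation p = 0.0286, adjusted p = 0.343) and rho = 0.71 (permutation p = 0.0252). Negative values of like size belonged to *Il25*, with r = -0.65 and rho = -0.75 for *Chat* (permutation p = 0.0562 and 0.0366), r = -0.74 for *Cftr* (permutation p = 0.0824) and r = -0.57 for *Foxi1* (permutation p = 0.0655). Without the 2 mice farthest from the median of *Chat*, r of *Il25* and *Chat* was -0.86. Without the 2 farthest from the median of *Il25*, r was -0.38 for *Cftr* and -0.57 for *Foxi1*. For *Il25* and *Cftr*, r was 0.03 at 8 weeks and -0.88 at 10 weeks. None of these relations passed the adjusted threshold. *Foxi1* and *Ascl3*, the transcription factors of the ionocytes, had r = 0.36 (permutation p = 0.278, adjusted p = 0.769) and rho = 0.30 (permutation p = 0.399, adjusted p = 0.934) in these mice, and r = 0.31 without the 2 mice farthest from the median of *Foxi1*. It was 0.43 at 8 weeks and 0.26 at 10 weeks.

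The genes most like 4 of the 9 were found by Pearson's r of centred log2 CPM over 24 libraries, as a description. These values include libraries 7 to 12 with their separate levels, so the values in the 12 mice of 8 and 10 weeks stand beside them. The 12 mice were part of the choice. For *Trpm5* they were *Pip4k2a*, *Kcnj5*, *Flcn*, *Cfap46* and *Aox2* (0.95, 0.95, 0.94, 0.94 and 0.94). In the 12 mice *Kcnj5*, a potassium channel gene, had a value of 0.94, while *Pip4k2a* had 0.50, *Flcn* 0.56, *Cfap46* 0.67 and *Aox2* 0.50. For *Pou2f3* they were *Snapc1* (0.89), *Slc5a6*, *Ttc24*, *Adamdec1* and *Cers4* (0.83 each), and in the 12 mice *Snapc1* had 0.86 and the others 0.48 to 0.61.

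For *Foxi1* the genes were *Prkcd* (0.89), *Zfp395* (0.83), *Sting1* (0.82), *Smbd1* (0.81) and *Tlr3* (0.79). They had 0.92, 0.80, 0.81, 0.67 and 0.79 in the 12 mice. For *Ascl3* they were *Stap1* (0.85), *Kcnj1* (0.84), *Ermn* (0.83), *Gcnt1* (0.83) and *Hey1* (0.83). In the 12 mice they had 0.80, 0.61, 0.50, 0.51 and 0.41. *Stap1* was also on the list of ionocyte genes and *Ermn* on that of sustentacular markers.

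Other genes of the tuft-like programme were followed in 6 lists with 54 genes, of which 43 were tested over 24 libraries. Of these 0 were called by edgeR and 17 lay higher in *iRhom2-/-*, with a median log2 fold change of -0.02. At 8 weeks 0 of 40 were called higher and 1 lower (median -0.13, 11 higher), where 4.98% of all genes were called. At 10 weeks 0 of 41 and in libraries 7 to 12 0 of 39 were called (medians -0.03 and -0.03), against 0.197% and 1.07% of all genes, and over 24 libraries the share of all genes was 1.97%. The smallest adjusted p was 0.0833 at 8 weeks, 0.219 at 10 weeks and 0.260 in libraries 7 to 12. Over 24 libraries the medians of the lists were 0.02 for 6 transcription factors (3 higher), -0.01 for 7 taste-type transduction genes tested (3 higher) and -0.12 for 8 genes of eicosanoid synthesis and its receptors (0 higher). In the same comparison 0 of 10 macrophage markers (median -0.28) and 0 of 5 mast cell markers (median -0.71) were higher, and their part in the eicosanoid list was not tested. The list medians were 0.05 for 4 cholinergic genes (2 higher), -0.004 for 7 genes of the type 2 cytokine axis (3 higher) and 0.03 for 11 cytoskeleton and signalling genes (6 higher). *Tas1r2*, *Tas2r105*, *Rgs21* and *Il13* were at or under 3 counts in all libraries, and no gene of these lists was at 0 in all of them. Some listed genes lay far above the tuft-like members. Mean levels over 24 libraries were 360 CPM for *Gng13*, 372 CPM for *Krt18* and 211 CPM for *Il33*, against 5.49 CPM for *Pou2f3*. The lists are thus not a measure of tuft-like cells alone, and the part of other cells in them was not tested.

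The gene called at 8 weeks was *Il13ra1*, a receptor chain for interleukin-13 (chrX:36112110-36171259, plus strand). Its level was 62.4, 62.3 and 66.2 CPM in *WT* and 55.7, 50.2 and 55.0 CPM in *iRhom2-/-* mice. All *iRhom2-/-* mice were below all *WT* mice, and the gene fell by 0.26 on the log2 scale (SE 0.0613, adjusted p = 0.0833, edgeR, lower in 3 of 3). The call was lost with sex as a term (-0.24, adjusted p = 0.200), with the likelihood ratio test (0.155), as a contrast from 1 fit of all libraries (0.307), at a threshold of 0.05, and without any of 5 of the 6 mice, the exception being *iRhom2-/-* mouse 1, with adjusted p between 0.0763 and 0.274. It was kept with DESeq2 (adjusted p = 0.0167), RLE scaling (0.0829), no filter (0.0999), 10 counts in every library (0.0787) and the replicate number as a block (0.0867). At 8 weeks macrophage markers (median -0.70) and gland and secretory markers (median -0.86) were also lower and mOSN markers higher (median 0.51), and their part in the values of *Il13ra1* was not tested. At 10 weeks its log2 fold change was -0.17 (adjusted p = 0.839), and the difference between submissions missed the threshold (adjusted p = 0.675).

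In the tuft lists, no gene passed the threshold over 24 libraries in edgeR, and those of low p on either side are given here. *Colca2* encodes a coactivator of Pou2f3, and its log2 fold change was 0.17 (SE 0.0781, adjusted p = 0.383), with 9 of 12 *iRhom2-/-* libraries above the *WT* mean. The taste receptor gene *Tas1r3* and the acetylcholinesterase gene *Ache* had 0.27 and 0.29 (adjusted p = 0.600 and 0.637). *Gng13*, a G protein subunit of taste-type and olfactory signalling that was the most abundant gene of its list per kilobase, had -0.34 (SE 0.136, adjusted p = 0.289), with 11 of 12 libraries below the *WT* mean. *Lta4h*, the enzyme that makes leukotriene B4, had -0.12 (adjusted p = 0.307), also with 11 of 12 below.

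Other ionocyte genes were followed in 3 lists with 19 genes, all of which were tested. Over 24 libraries 0 of 19 were called by edgeR and 11 lay higher, the median log2 fold change being 0.05, where 1.97% of all genes were called. The median was -0.07 at 8 weeks (8 higher), 0.12 at 10 weeks (13 higher) and 0.09 in libraries 7 to 12 (11 higher), with smallest adjusted p of 0.181, 0.588 and 0.227. None was called in these comparisons, against 4.98%, 0.197% and 1.07% of all genes. Over 24 libraries the median was 0.18 for 3 transcription factors (2 higher), 0.03 for 5 proton pump subunits (3 higher) and 0.05 for 11 channels and other genes (6 higher). Among the higher genes of low p were *Atp6v0a4*, a proton pump subunit (0.10, adjusted p = 0.481), and *Foxi2*, a relative of *Foxi1* (0.22, adjusted p = 0.535), each with 9 of 12 *iRhom2-/-* libraries above the *WT* mean. On the other side were *Hepacam2* (-0.07, adjusted p = 0.831) and *Tfcp2l1* (-0.09, adjusted p = 0.870).

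*Npy*, the gene of neuropeptide Y, had opposite signs in the comparisons. It was at 1.94, 2.46 and 3.48 CPM in *WT* and at 5.16, 3.75 and 3.80 CPM in *iRhom2-/-* mice of 8 weeks, with all *iRhom2-/-* mice higher. At 10 weeks it was at 13.5, 6.44 and 11.5 CPM in *WT* and 5.06, 6.82 and 8.18 CPM in *iRhom2-/-* mice, and the groups overlapped. The log2 fold change was 0.68 at 8 weeks (adjusted p = 0.228, edgeR), -0.64 at 10 weeks (0.668) and -0.90 in libraries 7 to 12 (0.227), where 6 of 6 were below the *WT* mean. Over 24 libraries it was -0.46 (adjusted p = 0.449). The test of the difference between submissions missed the threshold after adjustment (adjusted p = 0.282).

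Markers of the other cells of the tissue showed that the libraries held OE. Per kilobase, the most abundant marker was *Omp* for mOSNs (2721 CPM), *Cbr2* for sustentacular cells (1897 CPM), *Stmn1* for iOSNs (185 CPM) and *Krt5* for horizontal basal cells (37.9 CPM). *Bpifa1* stood for gland and secretory cells (3557 CPM), *Rsph1* for ciliated respiratory cells (56.8 CPM), *S100a9* for neutrophils (225 CPM), *Lyz2* for macrophages (154 CPM), *Neurod1* for globose basal cells and precursors (5.98 CPM), *Cd79a* for lymphocytes (2.97 CPM) and *Cma1* for mast cells (0.274 CPM). The libraries thus also held secretory, ciliated and immune cells. Over 24 libraries 0 genes of these 11 lists were called by edgeR, where 1.97% of all genes were called and 49.7% were higher. In *iRhom2-/-* 10 of 10 mOSN, 4 of 5 iOSN, 6 of 7 globose basal and precursor, 3 of 4 horizontal basal, 3 of 6 sustentacular and 5 of 7 ciliated markers were higher, with medians of 0.12, 0.10, 0.03, 0.12, -0.01 and 0.06. Of the others, 2 of 6 gland and secretory, 8 of 9 neutrophil, 0 of 10 macrophage, 0 of 5 mast cell and 0 of 6 lymphocyte markers were higher, with medians of -0.39, 0.10, -0.28, -0.71 and -0.84.

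Promoter sequences from RefSeq (GRCm38.p6, 300 bases around each gene's start) were at hand for 7 of the 9 genes, that is all but *Pou2f3* and *Il25*. The octamer ATGCAAAT, a motif of POU factors, was searched on both strands and was found in 1.74% of all 32851 promoters. The forkhead motif TGTTTAC was found in 3.65% of them. Neither was found in the 7 promoters, which says only that these letters are not in that window.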

How the data were processed

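RNAseq libraries from the main OE of 12 *WT* and 12 *iRhom2-/-* mice were analysed. The authors aligned reads with STAR to GRCm38 within nf-core and deposited an estimated count per gene from RSEM, as whole numbers without normalization. The deposited table also holds the authors' own comparison between genotypes (logFC, logCPM, LR, PValue and FDR), which was not used. Mice of 8 and 10 weeks were matched to columns by name, and the 12 columns of 5 and 30 weeks were assigned by genotype only. Labels give separate mice. The members and lists were chosen with earlier results of these data known.

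Testing was done in edgeR 4.0.16 under R 4.3.3. The function filterByExpr chose the genes tested (20763 over 24 libraries, 19335 at 8 weeks, 18764 at 10 weeks and 18481 in libraries 7 to 12), TMM set the scale of each library, and glmQLFit with glmQLFTest compared the genotypes, with submission as a term over 24 libraries and no covariate within submissions. The Benjamini-Hochberg adjustment covered all genes tested, with a threshold of 0.1. The interaction of genotype and submission was tested with 2 terms together. Where the filter removed a gene, mean CPM was compared with a two-sided exact permutation test. Relations rested on log2 CPM (prior count 2) and on 100000 permutations within genotype and submission. All fits were tested on simulated data, and the outcome is not reported here. No duplicate was found among the 42 pairs of libraries within groups, which had a chi-square of 12.8 or more per degree of freedom. Gene positions and exon lengths are those of GENCODE for GRCm38. Python 3.11.15 with scipy 1.17.1 was used for permutations.

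Genes named are the 9 members, *Rhbdf2*, every gene of the tuft and ionocyte lists called in a comparison, the 3 of smallest p in each direction from each of these sets over 24 libraries, the most abundant gene of each marker list, and the 5 genes most like *Trpm5*, *Pou2f3*, *Foxi1* and *Ascl3*. Some genes that this choice includes are not reported here. *Bpifb9b*, *Krt18* and *Il33* were named after their values were seen. Also tried were edgeR's likelihood ratio test, DESeq2 1.42.0, a threshold of 0.05, scaling by RLE, leaving the filter out or asking for 10 counts in each library, fits without submission, with sex or with the replicate number as a block, contrasts from 1 fit of all libraries, the mice of 8 and 10 weeks only, and leaving out each library in turn. Relations in the 12 mice of 8 and 10 weeks, and the exact test on CPM by library totals, were added after seeing the data.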

Additional observations from a re-analysis of the deposited data

Results flagged for a closer look

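In groups of 6 libraries, 90 sets of values were examined for a library far from the other 5, and 4 were found. Chance gives about 1 in 20 sets, so 4 of 90 is near that rate, and the 4 are given as a description only. The rate does not take into account that these groups hold both ages. *WT* library 8 had a summed level of 444 CPM for the tuft cytoskeleton and signalling genes, where the median of the other *WT* libraries of 5 and 30 weeks was 522 CPM. Most of that sum is *Krt18*, with a mean of 372 CPM over 24 libraries, so it is not a measure of tuft-like cells alone. The same library had 86.2 CPM for the horizontal basal markers, against a median of 146 CPM. *iRhom2-/-* library 9 had 499.9 CPM for the macrophage markers, against a median of 295 CPM in the other *iRhom2-/-* libraries of 5 and 30 weeks, and 1226 CPM for the neutrophil markers, against 483 CPM. The part of these libraries in the values of the tuft-like and ionocyte genes was not tested beyond leaving each of them out.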

How the results depend on the processing

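Leaving out 1 library at a time, 0 of the 9 genes were called by edgeR in any comparison, and log2 fold changes of the 9 genes kept their sign in 386 of these fits and changed it in 34. Among other settings 297 kept sign and call, 6 changed sign and 2 gained a call (*Pou2f3* and *Alox5* with DESeq2, which is 1 member each over 24 libraries and at 8 weeks). The cause was not tested. Signs changed for *Cftr* over 24 libraries with 8 and 10 weeks only (-0.0753), for *Npy* there (0.0069), and for *Ascl3* in libraries 7 to 12 with DESeq2 (0.00094) or RLE scaling (0.0010). Ranges that crossed 0 when 1 library was left out were, over 24 libraries, *Avil* (-0.11 to 0.0249) and *Tfcp2l1* (-0.14 to 0.0110), at 8 weeks *Foxi1* (-0.24 to 0.20) and *Ascl3* (-0.19 to 0.0113), at 10 weeks *Chat* (-0.34 to 0.39), *Avil* (-0.0945 to 0.10), *Il25* (-0.78 to 0.21) and *Cftr* (-0.0664 to 0.30), and in libraries 7 to 12 *Avil* (-0.0940 to 0.19), *Alox5* (-0.17 to 0.12), *Foxi1* (-0.0020 to 0.20) and *Ascl3* (-0.0729 to 0.0799). Ranges that kept their sign but moved by over 1.5 times were, over 24 libraries, *Alox5* (-0.17 to -0.03), *Foxi1* (0.06 to 0.17), *Cftr* (0.09 to 0.18), *Ascl3* (0.0053 to 0.08), *Ache* (0.15 to 0.36) and *Hepacam2* (-0.13 to -0.04), at 8 weeks *Avil* (-0.42 to -0.11) and *Il25* (0.0061 to 0.59), at 10 weeks *Foxi1* (0.18 to 0.41) and *Ascl3* (0.11 to 0.30), and in libraries 7 to 12 *Trpm5* (0.08 to 0.47) and *Il25* (-0.43 to -0.08), beside the ranges of *Trpm5*, *Chat*, *Il25* and *Alox5* in the results.

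The number of all genes called moved more. Over 24 libraries it was 410, and 824 with DESeq2, 234 at a threshold of 0.05, 132 without submission, 106 with 8 and 10 weeks only, and 299 to 727 without 1 library (727 without *iRhom2-/-* mouse 2 of 10 weeks). At 8 weeks it was 962, and 2195 with DESeq2, 270 at 0.05, 138 with sex as a term, 404 as a contrast of the fit of all libraries, and 68 to 1300 without 1 mouse, with 103, 132, 68 and 75 without *WT* mice 2 or 3 or *iRhom2-/-* mice 2 or 3. Of the calls at 8 weeks, 65.1% were higher with the quasi-likelihood test, 53.6% with the likelihood ratio test, 60.6% with RLE scaling, 47.8% with sex as a term and 53.4% with DESeq2. At 10 weeks it was 37, and 289 with DESeq2, 178 with the likelihood ratio test, 58 with no filter, and 13 to 105 without 1 mouse. In libraries 7 to 12 it was 198, and 916 with DESeq2, 119 with no filter, 51 at 0.05, and 52 to 241 without 1 library. For the interaction it was 10, and 288 with the likelihood ratio test, 3 at 0.05, 495 with DESeq2, and 0 to 204 without 1 library. The exact p of *Chat* was 0.0108 to 0.0996 without 1 library and 0.0368 on CPM by totals. Pairs of related genes numbered 0 in place of 24 with 8 and 10 weeks only, added after seeing the data.

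The replicate numbers did not pair the mice, since the correlation of deviations of mice with the same number was 0.12, 0.03 and 0.0037 at 8 weeks and 0.01, 0.22 and 0.11 at 10 weeks. With the replicate number as a block, 1454 genes were called at 8 weeks, 46 at 10 weeks and 41 over both, with 0 of the 9 genes in each. With the block, the sign changed for *Il25* (0.0186), *Cftr* (-0.0716) and *Npy* (0.0403) over both ages and for *Chat* at 10 weeks (0.0172). Depth limits *Chat* and *Il25* most, and with 3 mice per group an exact test cannot go below p = 0.1.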
